A study of Mus musculus with 9 samples.

Results

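The 10 genes described here belong to the methionine cycle, its methyltransferases and the transsulfuration route: Mat1a, Ahcy, Gnmt, Nnmt, Inmt, Gamt, Pemt, Bhmt, Cbs and Cth. They were found by symbol among the 28956 rows of a count table from mouse liver after acetaminophen (APAP) overdose, and all 10 passed the filter on low counts that left 17582 genes for testing. The set was chosen by pathway and, in part, selected on the measured counts of Inmt, which were much higher after MSC injection. The values of the APAP+MSC comparisons are therefore a description of these 10 genes. No p-value is given for them there, and the number past the test's threshold is printed only beside that of all genes.

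Livers of C57BL6J mice aged 8 weeks were compared 24 h after 300 mg/kg of APAP given intraperitoneally. In the APAP group no cells were given. In the APAP+MSC and APAP+HDF groups, 500000 cells labelled MSC or HDF were injected intravenously 90 min after APAP. The labels do not expand either abbreviation. Each group has 3 libraries, all groups received APAP, and there is no untreated liver. The labels name the cell type as hepatocytes, while the protocol describes a piece of whole liver, so the RNA is that of a mixed tissue. In such bulk RNA, fewer cells of a type and less RNA per cell cannot be told apart. The labels do not say that the 3 libraries of a group came from separate animals, so p-values measure only the spread between these libraries, which may be technical.

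In the methionine cycle, MAT1A makes S-adenosylmethionine, the methyl donor of the cell, from methionine. Methyltransferases pass the methyl group to an acceptor and release S-adenosylhomocysteine, which AHCY splits into adenosine and homocysteine. Homocysteine is either methylated again, in liver in part by BHMT with betaine as donor, or sent by CBS and CTH through cystathionine to cysteine, a building block of glutathione. Glutathione is the molecule that captures the reactive metabolite of APAP in hepatocytes, and the cycle is highly active in that cell type.

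The sequences before the start sites of 3 genes are shown, because Inmt and Gamt differed most clearly between APAP+MSC and APAP and Bhmt separated the APAP+MSC from the APAP+HDF libraries. They are the 250 bases before the transcription start from RefSeq (GRCm38.p6), all from the minus strand and written 5′ to 3′. Capitals mark matches, on either strand, to the letters TATAAA (the TATA box core), CCGCCC (the GC box core), AGGTCA (the core letters bound by many nuclear receptors) and CCAAT (the CCAAT box).
Inmt, chr6:55174991-55175240: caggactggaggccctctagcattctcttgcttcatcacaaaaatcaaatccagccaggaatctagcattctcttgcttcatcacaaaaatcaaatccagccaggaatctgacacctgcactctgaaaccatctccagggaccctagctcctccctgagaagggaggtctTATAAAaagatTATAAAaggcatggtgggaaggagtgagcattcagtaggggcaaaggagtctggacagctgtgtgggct
Gamt, chr10:80261013-80261262: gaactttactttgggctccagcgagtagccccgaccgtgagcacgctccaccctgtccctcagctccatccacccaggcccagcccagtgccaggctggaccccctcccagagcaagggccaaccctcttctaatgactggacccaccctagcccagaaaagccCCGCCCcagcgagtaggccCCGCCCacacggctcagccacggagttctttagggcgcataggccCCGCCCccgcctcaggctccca
Bhmt, chr13:93637759-93638008: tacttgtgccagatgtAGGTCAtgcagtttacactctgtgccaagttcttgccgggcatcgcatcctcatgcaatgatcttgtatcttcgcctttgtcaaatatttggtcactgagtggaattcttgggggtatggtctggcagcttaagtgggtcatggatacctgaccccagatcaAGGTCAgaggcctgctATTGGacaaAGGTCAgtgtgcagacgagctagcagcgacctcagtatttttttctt
The Inmt window held TATAAA at positions 171 and 182, counted from 1 at its 5′ end. It also held an exact tandem repeat, with the 46 bases from position 16 repeated from position 62. An exact repeat of at least that length was present in 0.198% of 32851 promoter windows of the same length. The Gamt window held CCGCCC 3 times, and the Bhmt window held AGGTCA 3 times and CCAAT, read on the opposite strand as ATTGG, at position 195. Of all windows, 12.4% held TATAAA, 32.7% held CCGCCC, 14.0% held AGGTCA and 33.8% held CCAAT, counting a window with any number of matches. Among other genes of the set, AGGTCA was also found for Gnmt and Ahcy and CCGCCC for Ahcy and Cbs. CCAAT was also found for Gnmt, Pemt, Ahcy and Cbs. These matches describe the letters only; the motifs were picked with the sequences in view.

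Depth was 53267231 to 63175573 counts per library. A count of 0 would allow up to 3 counts, or 0.0453 to 0.0567 CPM (counts scaled to 1000000 per library), for counting error only, and every value below lies above that. Mitochondrial genes took 6.20% to 7.24% of the counts. APAP+HDF library 1 had the highest normalization factor, 1.11, and was the lowest of its group for 9 of the 10 genes, with Bhmt as the exception. Libraries are numbered by column order, since the column names carry no number of their own.

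Inmt, Gamt, Pemt and, by a smaller gap, Cth were higher in all APAP+MSC libraries than in all others, Cbs was higher there than in all APAP libraries, Bhmt was high in APAP+MSC and low in APAP+HDF with the APAP libraries spread between, and Mat1a, Ahcy, Gnmt and Nnmt overlapped between all groups. Levels are in CPM with library sizes scaled by TMM factors (trimmed mean of M values). Differences are log2 fold changes with standard errors (SE) from edgeR.

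**Figure D1:**
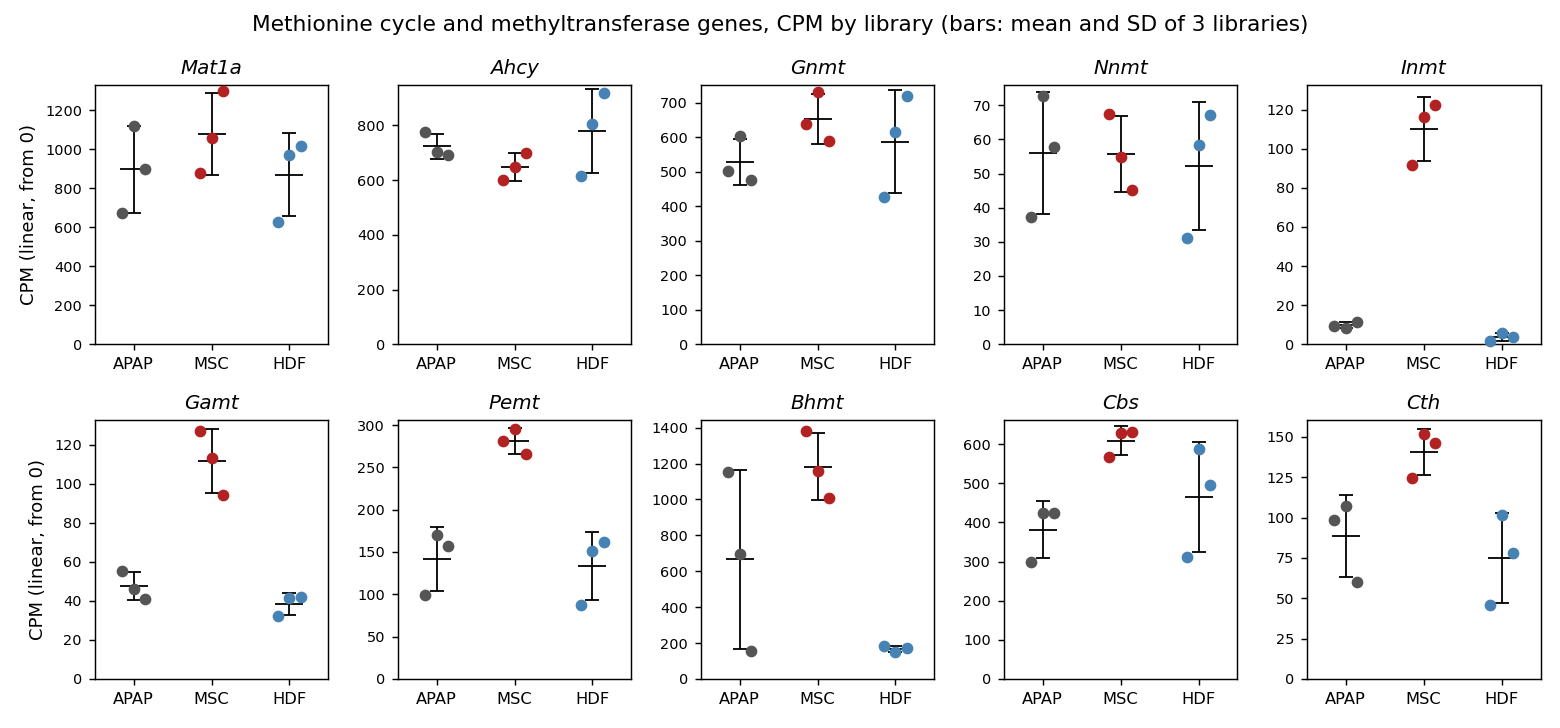
CPM of each of the 10 genes on a linear axis starting at 0, with 1 point per library and bars for mean ± SD (n = 3) in APAP, APAP+MSC and APAP+HDF. The APAP+MSC libraries of Inmt lie between 91.4 and 122 CPM and those of the other groups at or below 11.2 CPM, while the APAP libraries of Bhmt run from 156 to 1152 CPM.

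Mat1a encodes the liver enzyme that makes S-adenosylmethionine. Its level was 674, 1118 and 899.6 CPM in the APAP libraries, 879, 1054 and 1295 CPM in APAP+MSC and 624, 968 and 1017 CPM in APAP+HDF. All groups overlapped. The difference between APAP+MSC and APAP was 0.26 ± 0.23 (SE) on the log2 scale, with a 95% interval of -0.24 to 0.77. Between APAP+HDF and APAP it was -0.04 ± 0.23 (adjusted p = 0.972, edgeR).

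Ahcy, the enzyme that removes S-adenosylhomocysteine, was measured at 777, 702 and 692 CPM in APAP. It was at 599, 647 and 700.1 CPM in APAP+MSC and at 616, 804 and 918 CPM in APAP+HDF. These ranges overlapped, and the log2 difference of APAP+MSC from APAP was -0.16 ± 0.15 (95% interval -0.48 to 0.17). Against APAP, APAP+HDF differed by 0.11 ± 0.15 (adjusted p = 0.867, edgeR).

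Among the methyltransferases, Gnmt, which methylates glycine and so consumes surplus S-adenosylmethionine, was the most abundant per exon length in every group. It gave 502, 604 and 478 CPM in APAP, 638, 731 and 591 CPM in APAP+MSC and 426, 615 and 721 CPM in APAP+HDF. The lowest APAP+MSC library was below the highest APAP library. The log2 differences from APAP were 0.31 ± 0.18 (95% interval -0.09 to 0.71) for APAP+MSC and 0.15 ± 0.18 for APAP+HDF (adjusted p = 0.839, edgeR).

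Nnmt methylates nicotinamide. Its 3 APAP libraries were at 37.2, 72.8 and 57.8 CPM, the APAP+MSC libraries at 67.4, 54.7 and 45.3 CPM, and the APAP+HDF libraries at 31.1, 58.4 and 67.2 CPM. The groups overlapped fully, with means of 55.9 ± 17.9, 55.8 ± 11.1 and 52.2 ± 18.8 CPM (SD, n = 3). The difference of APAP+MSC from APAP was 0.00 on the log2 scale. Its 95% interval was -0.72 to 0.72, so differences within that range remain compatible with these libraries. APAP+HDF differed from APAP by -0.10 ± 0.32 (adjusted p = 0.956, edgeR). Between APAP+MSC and APAP+HDF the log2 difference was 0.31 ± 0.23 for Mat1a, -0.26 ± 0.15 for Ahcy, 0.15 ± 0.18 for Gnmt and 0.10 ± 0.32 for Nnmt, all with overlapping libraries.

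Inmt methylates indolethylamines such as tryptamine, and also other small amines and chalcogen compounds. Its APAP libraries were at 9.52, 8.21 and 11.2 CPM, the APAP+MSC libraries at 91.4, 116 and 122 CPM, and the APAP+HDF libraries at 1.75, 5.72 and 3.48 CPM. No groups overlapped: every APAP+MSC library was above, and every APAP+HDF library below, the APAP libraries. The lowest APAP+MSC library was 8.16-fold above the highest APAP library and 16.0-fold above the highest APAP+HDF library. Mean levels were 9.65 ± 1.50, 110 ± 16.4 and 3.65 ± 1.99 CPM (SD, n = 3). APAP+MSC was 11.4-fold above APAP, a log2 difference of 3.51 ± 0.36 (95% interval 2.70 to 4.32). Against APAP+HDF the difference was 4.92 ± 0.39, or 30.2-fold.

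The lower Inmt level in APAP+HDF than in APAP involves APAP+HDF libraries that the choice of genes did not use, but also the APAP libraries that it did. The difference was -1.41 ± 0.35 on the log2 scale (unadjusted p = 0.00308, adjusted p = 0.525, edgeR over all genes), so it did not pass the threshold. DESeq2 gave -1.40 with an adjusted p of 0.00506, which is past it. The APAP+HDF libraries spanned a 3.28-fold range, and 0.638% of genes at 5 CPM or more spanned at least as much in that group. Without APAP+HDF library 1 the difference was -1.07 ± 0.22 (adjusted p = 0.188, edgeR).

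Gamt catalyses the last step of creatine synthesis, the methylation of guanidinoacetate. It was at 55.4, 46.1 and 41.2 CPM in APAP, at 127, 113 and 94.5 CPM in APAP+MSC and at 32.2, 41.5 and 42.2 CPM in APAP+HDF. The APAP+MSC libraries were all above the others, whereas APAP and APAP+HDF overlapped. The log2 difference of APAP+MSC was 1.23 ± 0.15 from APAP (95% interval 0.90 to 1.56) and 1.53 ± 0.15 from APAP+HDF. APAP+HDF differed from APAP by -0.30 ± 0.15 (adjusted p = 0.62, edgeR).

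Pemt makes phosphatidylcholine from phosphatidylethanolamine and is a large consumer of methyl groups in liver. Its levels were 99.3, 170.4 and 157 CPM in APAP, 281, 296 and 266 CPM in APAP+MSC and 87.7, 151 and 161 CPM in APAP+HDF. Again the APAP+MSC libraries stood above all others. The log2 difference was 0.98 ± 0.24 from APAP (95% interval 0.44 to 1.52) and 1.07 ± 0.24 from APAP+HDF, with -0.09 ± 0.24 between APAP+HDF and APAP (adjusted p = 0.941, edgeR).

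Bhmt remethylates homocysteine with betaine. Its APAP libraries were at 1152, 696 and 156 CPM, its APAP+MSC libraries at 1383, 1159 and 1008 CPM and its APAP+HDF libraries at 184, 148 and 170.1 CPM. APAP library 3 lay inside the range of APAP+HDF, and APAP library 1 inside that of APAP+MSC. The 7.38-fold range within APAP was reached by 0.122% of genes at 5 CPM or more, against a median of 1.23-fold. APAP+MSC differed from APAP by 0.82 ± 0.55 (95% interval -0.43 to 2.08). The lowest APAP+MSC library was 5.47-fold above the highest APAP+HDF library, and the fitted difference was 2.82 ± 0.58, or 7.06-fold.

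Against APAP, Bhmt in APAP+HDF differed by -1.99 ± 0.57 (adjusted p = 0.535, edgeR). DESeq2 gave an adjusted p of 0.0448 for the same contrast. Without APAP library 3 the difference was -2.47 ± 0.22 (adjusted p = 0.00115, edgeR), so the edgeR call depended on that 1 library. Bhmt2, a close relative that uses S-methylmethionine as donor, gave 237, 236 and 127 CPM in APAP, 252, 284 and 250 CPM in APAP+MSC and 131, 149 and 123 CPM in APAP+HDF. Its APAP library 3 also lay within the APAP+HDF range. Since the related genes can share reads, their split is uncertain. Gm15622, on the opposite strand, overlaps 7.51% of the Bhmt exon bases and had 0.489 to 4.69 CPM. Strand use in counting is not given in the sources used here.

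The transsulfuration genes came next. Cbs, which joins homocysteine and serine to cystathionine, was at 298, 424 and 423.5 CPM in APAP, 566, 629.6 and 629.8 CPM in APAP+MSC and 312, 587 and 497 CPM in APAP+HDF. APAP+MSC was above every APAP library, but overlapped with APAP+HDF. The log2 difference from APAP was 0.67 ± 0.21 (95% interval 0.20 to 1.14), and it was 0.39 ± 0.21 from APAP+HDF. APAP+HDF differed from APAP by 0.28 ± 0.21 (adjusted p = 0.730, edgeR).

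Cth, which splits cystathionine to give cysteine, was at 98.6, 107 and 59.9 CPM in APAP. The APAP+MSC libraries were at 124, 152 and 146 CPM, above all of APAP, and the APAP+HDF libraries at 45.6, 102 and 77.8 CPM. The log2 difference of APAP+MSC was 0.67 ± 0.29 from APAP (95% interval 0.01 to 1.33) and 0.91 ± 0.29 from APAP+HDF. Between APAP+HDF and APAP it was -0.24 ± 0.29 (adjusted p = 0.845, edgeR).

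**Figure D2:**
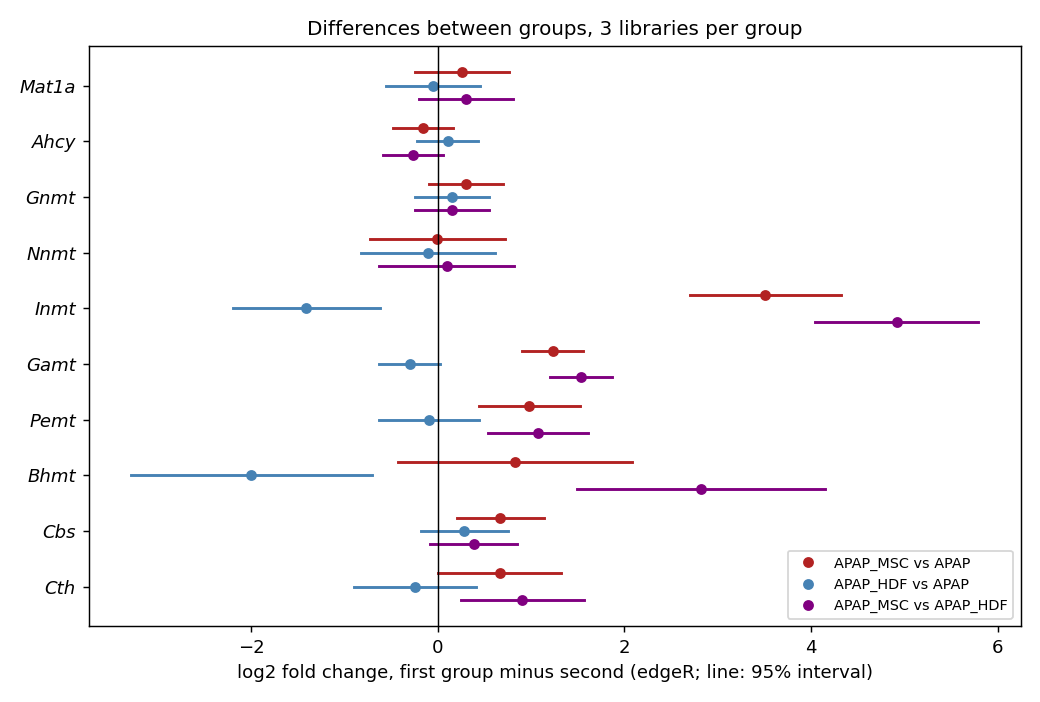
Log2 fold change of each of the 10 genes in the 3 comparisons, with bars for the 95% interval of the edgeR fit. Inmt lies farthest from 0 in both APAP+MSC comparisons, at 3.51 against APAP and 4.92 against APAP+HDF, and Bhmt, which has the widest intervals, lies farthest at -1.99 for APAP+HDF against APAP.

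Counted over the set, Inmt, Gamt and Pemt (3 of 10) had an edgeR adjusted p under 0.05 between APAP+MSC and APAP, beside 6.19% of all tested genes in either direction and 2.68% in the higher direction. Pemt was no longer among them without the low-count filter, or without any 1 of the APAP or APAP+MSC libraries or APAP+HDF library 2. Cbs was added with DESeq2, in the fit of the 6 libraries compared and without APAP+HDF library 1. In 5 of 10 (also Cbs and Cth) all APAP+MSC libraries were above all APAP libraries, beside 13.7% of tested genes in that direction and 28.5% in either. Nothing is read from these shares, since the contrast served to choose the set. The median log2 difference was 0.67, beside -0.01 over all tested genes. APAP+MSC against APAP+HDF uses the same APAP+MSC libraries: 4 of 10 passed, all in the higher direction (Inmt, Gamt, Pemt and Bhmt), beside 8.79% of tested genes in either direction and 4.78% in the higher one. Pemt and Bhmt dropped out without the low-count filter and without APAP+MSC library 1 or 2, and Bhmt also without any 1 of the APAP+HDF libraries. Cth was added with DESeq2 and without APAP+HDF library 2. In 5 of 10 (these and Cth) all APAP+MSC libraries were above all APAP+HDF libraries, beside 16.8% in that direction and 33.2% in either. The median was 0.65 beside -0.02.

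For APAP+HDF against APAP, 0 of 10 passed the edgeR threshold, and so did 0% of all tested genes. Of the latter, 1458 had an unadjusted p under 0.05. DESeq2 passed 69 genes, Inmt and Bhmt among them, and limma-voom 0. The set had 3 positive and 7 negative differences with a median of -0.10, beside 0.00 over all tested genes. Only Inmt had libraries that did not overlap, with all APAP+HDF below all APAP, beside 6.08% of tested genes in that direction, 5.66% in the other and 11.7% in either. This contrast and the previous ones share libraries, so their values are not independent.

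Per kilobase of merged exons (GENCODE vM21 models), the order of the genes changed between groups. In APAP the order from the top was Gnmt (510 ± 64.7 CPM per kb, SD, n = 3), then Ahcy (285 ± 18.3), Bhmt (268 ± 200.1) and Mat1a (259 ± 64.1), which did not differ beyond their spread. Pemt followed at 124 ± 33.0, above Cbs (60.9 ± 11.6), Nnmt (53.6 ± 17.2), Cth (48.8 ± 13.9) and Gamt (45.9 ± 6.94), whose spreads overlap. Inmt was lowest at 8.96 ± 1.40. In APAP+MSC, Gnmt stayed at the top with 631 ± 69.1, Bhmt was next at 475 ± 75.7, and Inmt at 102 ± 15.2 lay beside Gamt (108 ± 15.9) and Cbs (97.1 ± 5.83). Nnmt was lowest there at 53.5 ± 10.6. In APAP+HDF, Bhmt was at 67.3 ± 7.29, close to Cbs (74.2 ± 22.4), and Inmt was again lowest at 3.39 ± 1.85. These quantities are levels, and the exon lengths come from another build than the counts.

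The neighbouring pathways were tested over 90 genes in 9 lists that exclude the 10. Between APAP+MSC and APAP, 16 of 90 rose and 0 fell (17.8%, beside 6.19% of all tested genes), and the median log2 difference was 0.18 beside -0.01. The lists were written with earlier results of these data known. The count was 24 with DESeq2, of which 23 rose and 1 fell, and 13 with limma-voom. It was 0 without APAP+MSC library 2, 3 without APAP+MSC library 1, 6 without APAP+MSC library 3, 5 without APAP library 1 and 8 without APAP library 3. Among the named genes that rose, Suox, Paox and Naprt lost their call in 1 of the 9 fits with 1 library left out. The others lost it in 2 to 8 of them, except Ethe1, which was not followed gene by gene in these fits.

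In the methionine cycle and remethylation list, 0 of 9 passed: Bhmt2 differed by 0.39 ± 0.20 (adjusted p = 0.286, edgeR) and Ahcyl1 by 0.12 ± 0.09. In the folate list 3 of 15 rose: Shmt2, which moves a serine carbon onto folate in mitochondria, by 0.63 ± 0.14, Shmt1, its cytosolic counterpart, by 0.49 ± 0.12, and Aldh1l1, which oxidises formyl-folate, by 0.58 ± 0.15 (adjusted p = 0.0257, 0.0343 and 0.0435, edgeR). In betaine and sarcosine oxidation 2 of 5 rose. They were Sardh, which oxidises the sarcosine that Gnmt makes, by 0.69 ± 0.18, and Aldh7a1, which oxidises betaine aldehyde, by 0.56 ± 0.15 (adjusted p = 0.0482 and 0.0483, edgeR). Chdh, choline dehydrogenase, differed by 0.36 ± 0.11 (adjusted p = 0.0852, edgeR).

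In cysteine breakdown, hydrogen sulfide and glutathione synthesis 4 of 11 rose: Suox, Mpst, Tst and Ethe1. Suox, sulfite oxidase, had 30.8, 37.5 and 33.3 CPM in APAP and 48.9, 57.7 and 61.4 CPM in APAP+MSC, a log2 difference of 0.73 ± 0.13 (adjusted p = 0.0154, edgeR). Mpst and Tst, both sulfurtransferases, rose by 0.62 ± 0.12 and 0.80 ± 0.18. The other 7 genes of the list, among them Sqor, which oxidises sulfide, and the glutathione synthesis genes Gclc, Gclm and Gss, did not pass. Sqor differed by 0.04 ± 0.11 (adjusted p = 0.862, edgeR). Gclc differed by -0.42 ± 0.20 (adjusted p = 0.244, edgeR), Gclm by 0.18 ± 0.14 and Gss by 0.045 ± 0.098. Between APAP+MSC and APAP+HDF, Gclc was called lower, at -0.71 ± 0.20 (adjusted p = 0.0491, edgeR). Gclm (0.24 ± 0.14) and Gss (-0.125 ± 0.098) were not called there. Gclc was not followed gene by gene with 1 library left out.

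Of 13 genes of polyamines and methionine salvage, Paox alone passed. Paox, which oxidises acetylated polyamines, was at 23.6, 23.6 and 18.8 CPM in APAP and at 40.5, 54.3 and 39.0 CPM in APAP+MSC, a log2 rise of 1.02 ± 0.17 (adjusted p = 0.0101, edgeR). Odc1, the first enzyme of polyamine synthesis, differed by -0.55 ± 0.20 (adjusted p = 0.132, edgeR), and Amd1, which decarboxylates S-adenosylmethionine, by -0.32 ± 0.10. Among 9 other small-molecule methyltransferases 2 rose. Mettl7b, a thiol methyltransferase, rose by 0.95 ± 0.21 (adjusted p = 0.0286, edgeR).

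The creatine partners of Gamt showed no called gene, 0 of 3, and a median of -0.38. Gatm, which makes the guanidinoacetate that Gamt methylates, was at 4.71, 9.58 and 6.05 CPM in APAP and 5.59, 5.17 and 5.27 CPM in APAP+MSC. Its difference was -0.34 ± 0.25 (adjusted p = 0.467, edgeR) and 0.00 without APAP library 2. Slc6a8, the creatine transporter, differed by -0.50 ± 0.18 (adjusted p = 0.120, edgeR).

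In the nicotinamide and NAD list 3 of 12 rose, whereas Nnmt itself overlapped between groups. Naprt, which uses nicotinic acid for NAD synthesis, rose by 0.68 ± 0.12, and Qprt, of the route from tryptophan, by 0.54 ± 0.12 (adjusted p = 0.0139 and 0.0300, edgeR). Aox3, an aldehyde oxidase, was at 76.6, 125 and 96.3 CPM in APAP, at 392, 298 and 375 CPM in APAP+MSC and at 28.0, 87.5 and 121 CPM in APAP+HDF. It rose by 1.84 ± 0.45 (adjusted p = 0.0497, edgeR).

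Of 13 genes of phosphatidylcholine and phosphatidylethanolamine synthesis, the lipids on either side of the Pemt step, 1 rose. Chka, choline kinase, was at 93.3, 64.4 and 93.1 CPM in APAP, at 116, 121 and 117 CPM in APAP+MSC and at 127, 123 and 118 CPM in APAP+HDF. The log2 difference was 0.50 ± 0.13 for APAP+MSC (adjusted p = 0.0495, edgeR) and 0.55 ± 0.13 for APAP+HDF (adjusted p = 0.457, edgeR), both against APAP. Pcyt2 differed by 0.38 ± 0.11 (adjusted p = 0.0682, edgeR).

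For APAP+HDF against APAP, 0 of 90 passed with edgeR and 2 with DESeq2. Without APAP library 3, 4 passed, 1 higher and 3 lower. APAP+MSC against APAP+HDF gave 28 of 90 called, 23 higher and 5 lower (31.1%, beside 8.79%). That count was 15 (14 higher, 1 lower) without APAP+MSC library 1 and 10 (10 higher, 0 lower) without APAP+MSC library 2, and 19 to 29 without any other library.

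**Figure D3:**
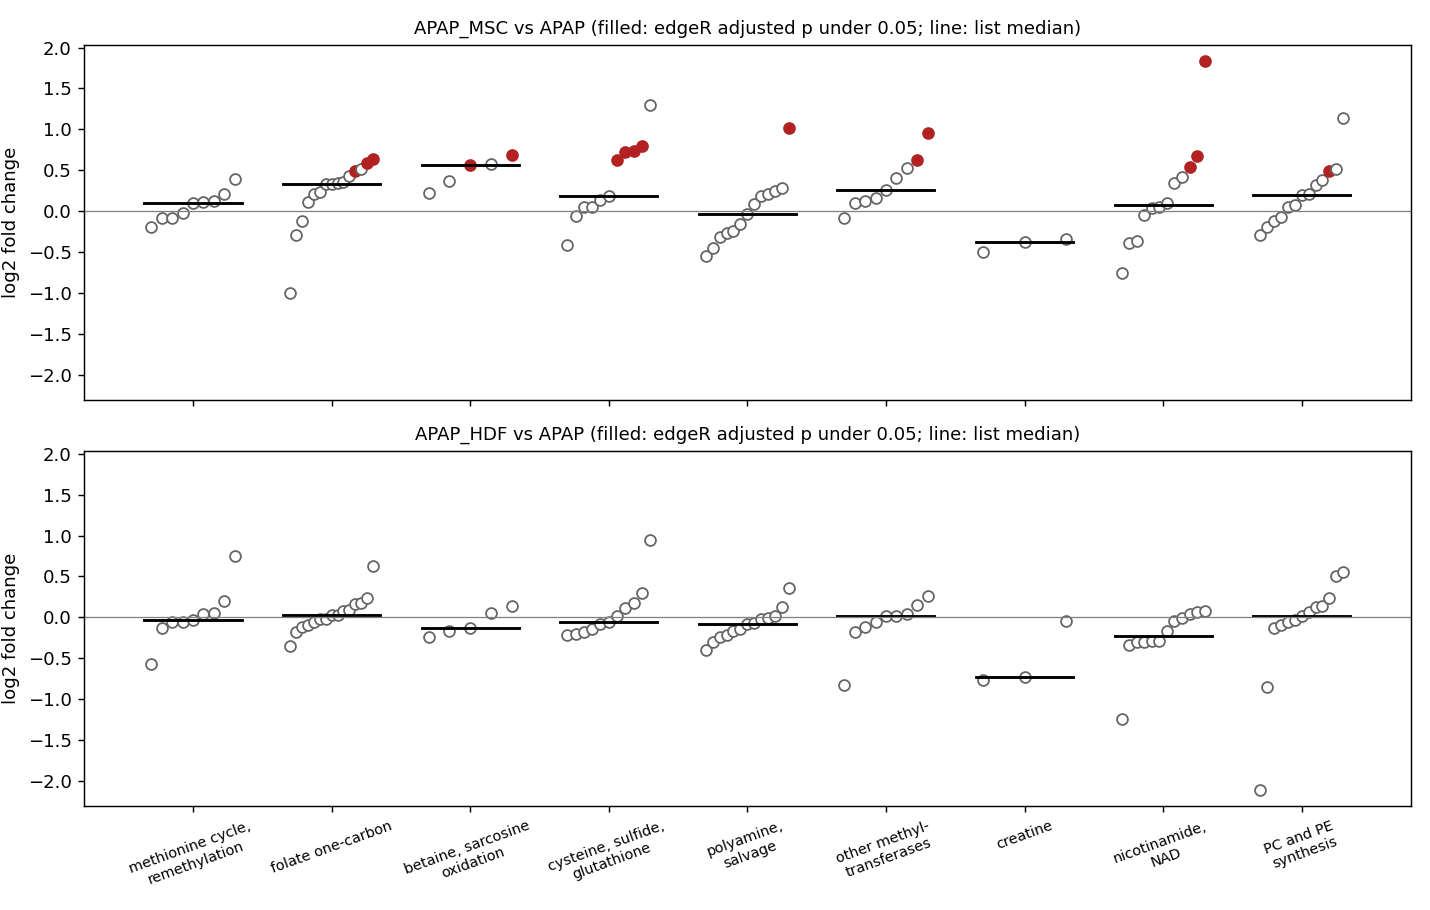
Log2 fold change of each tested gene in the 9 pathway lists, in APAP+MSC and in APAP+HDF against APAP, with filled points for genes with an edgeR adjusted p under 0.05 and a line at the median of each list. Filled points appear for APAP+MSC (16 of 90, all above 0) and for none of the APAP+HDF values.

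Profiles over the 9 libraries were compared with that of Inmt by the root mean square difference of centred log2 CPM. A value of 0 means the same pattern with changes of the same size. The measure therefore depends on the size of the changes as well as on their shape. The ranking covered 9304 genes at 5 CPM or more with an ordinary gene symbol, leaving out predicted-gene, clone-type and repeated symbols. Among these the closest were Serpina6 (0.46), which carries glucocorticoids in blood, Cyp7a1 (0.53), which starts the main route from cholesterol to bile acids, and Rgn (0.69), regucalcin. Cyp2c50 (0.71), a cytochrome P450, Scd1 (0.75), a fatty acid desaturase, and Car3 (0.83), a carbonic anhydrase, followed. Serpina6 was at 2.07, 1.51 and 2.29 CPM in APAP, 20.1, 25.2 and 23.6 CPM in APAP+MSC and 0.299, 2.03 and 1.70 CPM in APAP+HDF. Like Inmt it had its lowest value in APAP+HDF library 1. Within the set the smallest difference from Inmt was that of Bhmt (1.42), then Gamt (1.51) and Pemt (1.66), and the largest that of Ahcy (2.24). This order is not one of shape alone. In APAP libraries 1 and 2, centred Bhmt was at 1.32 and 0.59, where Inmt was at -0.66 and -0.88. With 1 library left out, 5 or 6 of the 6 genes closest to Inmt stayed among the closest.

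**Figure D4:**
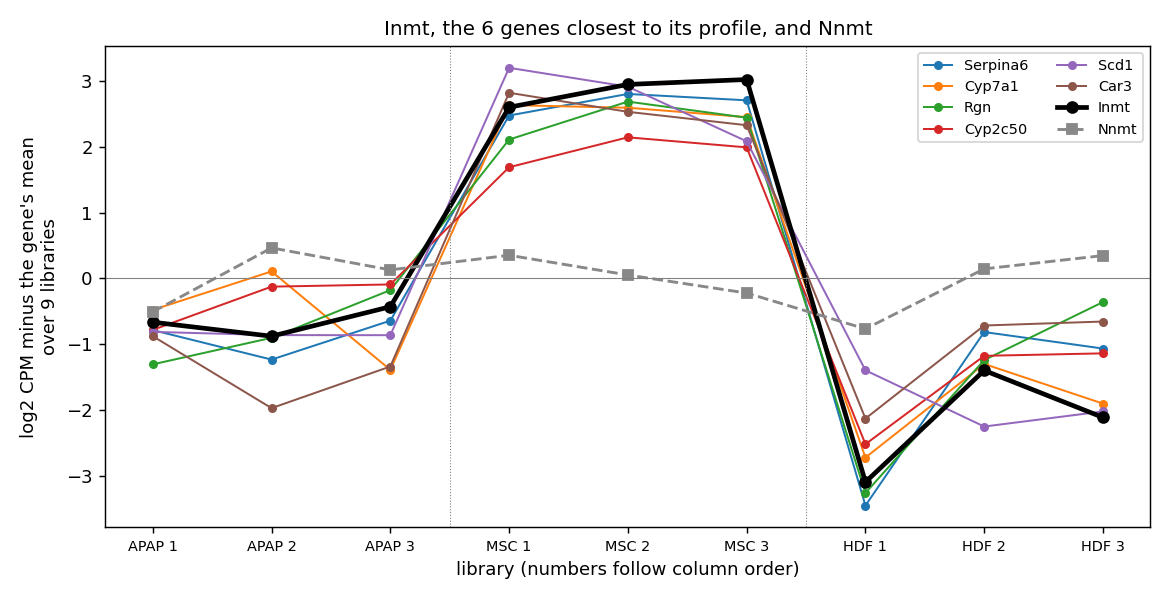
Centred log2 CPM of Inmt (thick line), the 6 genes closest to it and Nnmt (dashed) across the 9 libraries, where 0 is each gene's own mean. Inmt and the 6 genes are high in the 3 APAP+MSC libraries, with differences from Inmt of 0.46 for Serpina6 to 0.83 for Car3, whereas Nnmt (2.10) stays near 0.

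Markers of other liver cell types also differed between the groups. Summed hepatocyte markers overlapped at 96390 to 121521 CPM in APAP, 99948 to 111020 CPM in APAP+MSC and 93721 to 120521 CPM in APAP+HDF, with 0 of 7 called for APAP+MSC against APAP. Alb made up most of that sum, at 62366 to 86006 CPM over all libraries. Ttr was higher in all APAP+MSC libraries (4165 to 4692 CPM) than in all APAP libraries (2873 to 3149 CPM). The other hepatocyte markers overlapped between APAP+MSC and APAP. Macrophage markers (Cd68, Lyz2, Csf1r, Ccr2, Itgam, Trem2, Chil3 and Adgre1) summed to 123 to 177 CPM in APAP. They summed to 60.3 to 83.1 CPM in APAP+MSC and 86.0 to 127 CPM in APAP+HDF, with 4 of 8 lower in APAP+MSC than in APAP. The sums below are in the same order of groups. Neutrophil markers summed to 8.96 to 12.2, 2.78 to 3.89 and 3.15 to 10.3 CPM, with 4 of 5 tested lower. Sinusoidal endothelial markers (154 to 239, 111 to 125 and 150.2 to 211 CPM) had 3 of 7 lower, and stellate and fibroblast markers (215 to 306, 202 to 229 and 151 to 219 CPM) had 1 of 7 lower. Kupffer cell, cholangiocyte and T, B and NK markers had 0 called in that comparison, and erythroid markers had 1 higher. Of all tested genes, 3.51% were called lower and 2.68% higher between APAP+MSC and APAP. No marker in the lists was at 0 in all libraries, and none was called for APAP+HDF against APAP. For APAP+MSC against APAP+HDF, 3 of 5 cholangiocyte markers, 1 of 7 stellate and fibroblast markers and 1 of 3 erythroid markers were called higher. Summed cholangiocyte markers went the other way, at 37.1 to 56.3 CPM in APAP, 33.5 to 47.7 CPM in APAP+MSC and 54.8 to 62.6 CPM in APAP+HDF. Sox9 made up most of that sum, at 26.2 to 40.0 CPM in APAP+MSC and 51.1 to 59.6 CPM in APAP+HDF. The other cholangiocyte markers were at or below 3.22 CPM in every library. In the same comparison 2 of 8 macrophage, 2 of 5 neutrophil and 2 of 7 endothelial markers were called lower, and 0 hepatocyte, Kupffer cell or T, B and NK markers were called. Between APAP+MSC and APAP+HDF, 4.78% of all tested genes were called higher and 4% lower. The part of these cell types in the differences of the 10 genes was not tested.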

How the data were processed

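Poly(A) RNA from 9 mouse liver samples was sequenced in 3 groups of 3. TRIZOL extraction and a Tecan mRNA-seq kit are named per the labels' protocols. The authors deposited raw read counts per gene symbol, used here, and a table of normalized counts, not used here. The builds mm39 and GRCm39 and the tools HISAT2, Subread and DESeq2 appear, with neither version nor role, per the submitters' processing notes. Raw counts were tested with edgeR 4.0.16 (R 4.3.3) in a quasi-likelihood fit of all 9 libraries with TMM factors, filterByExpr and Benjamini-Hochberg adjustment over 17582 genes, at a threshold of 0.05, two-sided. The biological coefficient of variation was 0.197. Alternatives were DESeq2 1.42.0, limma-voom (limma 3.58.1), DESeq2 size factors, no low-count filter, the 6 libraries compared alone and each library left out. The fitting code was tested on simulated data. Replicate pairs all differed by more than counting noise.

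The genes and lists were chosen with earlier results of these data known, and the promoter motifs with the sequences in view. Named genes were the 10 members, the 3 genes of each pathway list with the smallest p between APAP+MSC and APAP, and the 6 genes closest to Inmt (prior count 2, mean of at least 5 CPM, ordinary gene symbol). Further genes were named where a count of 5 or fewer needed it. Promoters were matched by symbol for 7 of the 10 genes. Some genes that this rule names are not reported here.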

Additional observations from a re-analysis of the deposited data

How the results depend on the processing

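The number of genes called between APAP+MSC and APAP was 1088, and it was 1938 with DESeq2 and 87 to 1676 with 1 library left out. Between APAP+HDF and APAP it was 0, with 10 without the low-count filter, 69 with DESeq2 and 0 to 31 with 1 library left out. Between APAP+MSC and APAP+HDF it was 1545, with 2349 with DESeq2 and 324 to 1730 with 1 library left out. With 1 library left out, the log2 difference of APAP+HDF from APAP changed sign for Nnmt (-0.32 to 0.17), Gnmt (-0.022 to 0.34), Pemt (-0.29 to 0.13), Mat1a (-0.21 to 0.14), Ahcy (-0.029 to 0.25) and Cth (-0.52 to 0.013). Between APAP+MSC and APAP those of Gatm (-0.53 to 0.0013) and Nnmt (-0.21 to 0.25) did, and between APAP+MSC and APAP+HDF those of Nnmt (-0.16 to 0.33) and Gnmt (-0.023 to 0.34). The other differences of the 10 genes kept their sign with 1 library left out. Causes were not tested. No paired analysis was possible because the columns carry no replicate number.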
